A study of Mus musculus with 18 samples.

Results

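The genes described here are 47 of the 41388 genes counted in each library, taken as a fixed list of symbols in 2 arms. The ER folding arm holds 22 genes for chaperones, disulfide isomerases and ER-associated degradation, and the integrated stress response arm holds 25 genes around the transcription factor ATF4. All 47 symbols were found among the Ensembl identifiers of the deposited files. The rule is a list of symbols with no threshold on a value, and the list was drawn up with earlier results of these data known. Total RNA freed of ribosomal RNA was sequenced from the soleus and the gastrocnemius, a pair of calf muscles, of mice aged 12 weeks and fasted for 4 h on standard chow. In knockout mice the floxed Mbtps1 gene, which encodes Site-1 Protease, was combined with HSACre, a Cre recombinase under a skeletal actin promoter that acts in muscle fibres, and control mice carried the floxed allele without Cre. The titles give 4 soleus knockout libraries (numbered 35, 39, 40 and 42), 5 soleus controls (34, 36, 37, 38 and 41), 4 gastrocnemius knockouts (2, 6, 7 and 9) and 5 gastrocnemius controls (1, 3, 4, 5 and 8), while the series text gives n = 4 per group. Values per library follow this order of numbers throughout.

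The endoplasmic reticulum (ER) folds secreted and membrane proteins with the help of lectin and HSP70-type chaperones and disulfide isomerases, and sends proteins that fail to fold to ER-associated degradation. When unfolded proteins build up, the membrane-bound factor ATF6 moves to the Golgi, where Site-1 Protease and then Site-2 Protease release its active part, while the sensor IRE1 splices the Xbp1 mRNA; both factors raise ER chaperone genes. The sensor PERK, like other kinases that phosphorylate the translation factor eIF2 alpha, favours translation of ATF4, which raises genes for amino acid synthesis and uptake. In skeletal muscle this second arm is known above all for its part in mitochondrial stress, fasting and the secreted factors FGF21 and GDF15. The design compares knockout with control in each muscle, and so asks whether either arm differed in muscles labelled as lacking the protease that activates ATF6.

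The sequences below show the motifs through which these factors are known to act, since the protease stands directly upstream of one of them. In the RefSeq tables of GRCm38.p6, 42 of the 47 genes had a promoter window of 300 bases, 250 before the transcript start and 50 after it. The ER stress element was searched as CCAAT with CCACG 9 bases after its end, on both strands. It stood in 9 of 20 windows of the ER folding arm (Hspa5, Hsp90b1, Pdia6, Calr, Canx, Dnajc3, Creld2, Syvn1 and Derl3), in 0 of 22 of the integrated stress response arm and in 0.137% of the windows of 27025 genes. A second form, ATTGG with CCACG 1 base after its end, stood in Dnajb11 and Herpud1 and in 0.0444% of all windows. The XBP1-type motif TGACGTGG was in no member's window and in 0.714% of all windows. The composite site for C/EBP and ATF factors, TGATGNAA on either strand, stood in 7 of 22 windows of the integrated stress response arm (Trib3, Asns, Chac1, Atf3, Pycr1, Fgf21 and Slc7a11), in 1 of 20 of the ER folding arm (Herpud1) and in 4.51% of all windows. These are matches of letters and not shown binding sites. The 250 bases before the start are given for the chaperone gene Hspa5 and for Chac1, which differed most between the muscles among the genes higher in the gastrocnemius; capitals mark the fixed letters of each motif, which read as their reverse complement where the motif lies on the other strand. Sequences run 5′ to 3′ on the strand of the gene.
Hspa5 (chr2:34771840-34772089, plus strand): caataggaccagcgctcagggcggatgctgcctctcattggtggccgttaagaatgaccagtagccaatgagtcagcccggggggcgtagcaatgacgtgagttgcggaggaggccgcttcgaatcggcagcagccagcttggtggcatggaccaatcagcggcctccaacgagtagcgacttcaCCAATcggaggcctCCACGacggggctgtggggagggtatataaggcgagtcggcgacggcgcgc
Chac1 (chr2:119350992-119351241, plus strand): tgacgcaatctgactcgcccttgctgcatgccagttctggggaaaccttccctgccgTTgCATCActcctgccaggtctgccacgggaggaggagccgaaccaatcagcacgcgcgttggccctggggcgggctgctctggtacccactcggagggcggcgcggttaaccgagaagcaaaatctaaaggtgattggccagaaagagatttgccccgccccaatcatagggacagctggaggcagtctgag
The next sites, each with 12 bases on either side, belong to ER folding genes that differed between the muscles of controls, in both directions: the chaperone genes Hsp90b1, Calr and Canx, and Herpud1 of ER-associated degradation.
Hsp90b1 (chr10:86705626-86705668, minus strand): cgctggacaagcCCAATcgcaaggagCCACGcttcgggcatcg
Calr (chr8:84847063-84847105, minus strand): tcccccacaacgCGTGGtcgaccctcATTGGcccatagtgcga
Canx (chr11:50325788-50325830, minus strand): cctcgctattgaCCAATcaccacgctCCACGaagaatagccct
Herpud1 (chr8:94386365-94386399, plus strand): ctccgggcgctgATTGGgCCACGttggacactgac
The last set holds composite sites of the integrated stress response arm, from a gene lower in the soleus (Pycr1) and from genes that did not pass the threshold (Asns and Atf3).
Pycr1 (chr11:120643832-120643863, minus strand): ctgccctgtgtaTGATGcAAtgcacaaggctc
Asns (chr6:7693213-7693244, minus strand): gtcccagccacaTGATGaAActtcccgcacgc
Atf3 (chr1:191183424-191183455, minus strand): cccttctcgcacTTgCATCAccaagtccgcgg

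Library totals ran from 39.0 to 78.2 M counts. The fibre markers separated the muscles as labelled: the summed level of 9 fast-fibre genes was 14985 to 30533 CPM (counts scaled to a common library size) in soleus and 132430 to 163634 CPM in gastrocnemius libraries, and that of 8 genes listed as slow-fibre was 24496 to 39022 CPM in soleus and 3072 to 4810 CPM in gastrocnemius. Myh2 in the slow-fibre list encodes the fast type IIA myosin. Its means were 15429 CPM in soleus controls and 3327 CPM in gastrocnemius controls. The slow myosin gene Myh7 had means of 9956 CPM in soleus controls and 453 CPM in gastrocnemius controls. In the fast-fibre list Myh4 was the largest part of the gastrocnemius sum, with means of 1947 CPM in soleus controls and 83157 CPM in gastrocnemius controls. Myh1 of that list went the other way, with means of 6193 CPM in soleus controls and 4891 CPM in gastrocnemius controls. The transcripts of Mbtps1 itself were not lower in muscles labelled knockout, with 31.0 to 36.3 CPM in soleus knockouts, against 30.5 to 34.4 CPM in soleus controls, and with 34.7 to 42.8 CPM in gastrocnemius knockouts, against 29.6 to 34.9 CPM in gastrocnemius controls. Counts over a whole gene do not resolve a deleted exon, and other cells of a muscle keep the gene, so this does not test the deletion. No label says that libraries came from separate mice, so the p-values measure the spread between these libraries, which may be technical. No library carries Cre alone, so loss of the protease and an effect of the Cre allele cannot be told apart.

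In controls the ER folding arm was led, per length, by chaperone and disulfide isomerase genes together with Herpud1. In the soleus the authors' deposited RPKM was highest for Hspa5 (the HSP70-type chaperone BiP) with 53.0 ± 13.2 RPKM (SD, n = 5), followed by P4hb (a disulfide isomerase) with 44.5 ± 4.48, the lectin chaperone gene Calr with 42.5 ± 2.10, Herpud1 (a membrane component of ER-associated degradation) with 33.7 ± 3.53 and the membrane lectin Canx with 32.7 ± 2.34. Hspa5, P4hb and Calr differed from their neighbour in this order by less than the larger SD, and so did Herpud1 and Canx. In the gastrocnemius the order began with Calr at 44.6 ± 3.86 RPKM, Herpud1 at 44.0 ± 4.22, P4hb at 40.0 ± 1.75, Hspa5 at 33.0 ± 2.66 and Canx at 19.7 ± 1.42 (SD, n = 5), of which the first 3 were closer to each other than the larger SD of each neighbouring pair. Derl3, a gene of ER-associated degradation, was last in both muscles with 0.567 ± 0.140 RPKM in soleus controls and 0.259 ± 0.0905 RPKM in gastrocnemius controls (SD, n = 5). In the integrated stress response arm Atf4 stood at 67.1 and Atf5 at 61.1 RPKM in soleus controls, and Ddit4 at 73.3 and Atf4 at 64.6 RPKM in gastrocnemius controls, means of 5 libraries each. Fgf21 and Slc7a11 were among the last of this arm in both muscles.

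The arms differed in how far libraries of one group lay apart. The SD within groups of log2 CPM (plus 0.5 CPM) had a median of 0.17 over the 22 ER folding genes and 0.28 over the 24 integrated stress response genes that passed the low-count filter, beside 0.19 over all 18494 genes tested. This SD also depends on the level of a gene. Several integrated stress response genes, such as Asns, Psat1, Gdf15 and Slc7a11, had low counts, and genes of like level were not compared. The most variable members were Atf3, a stress-induced transcription factor gene, with an SD of 1.25, and Ddit4, which encodes an inhibitor of the growth regulator mTORC1, with 1.11. They lay at percentiles 99.98 and 99.93 of the genes tested. Sesn2 (0.56) and Chac1 (0.54), followed at percentiles 99.1 and 98.9. Ddit4 had 98.9, 32.1, 55.7 and 17.9 CPM in soleus knockouts, 59.7, 119, 31.4, 44.97 and 102 CPM in soleus controls, 198, 40.3, 75.6 and 19.7 CPM in gastrocnemius knockouts and 96.9, 293, 36.4, 67.9 and 184 CPM in gastrocnemius controls. Its values overlapped between all 4 groups. The steadiest were Sel1l, an adaptor of the degradation ligase, and Dnajc3, a co-chaperone, with SDs of 0.081 and 0.083.

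**Figure D1:**
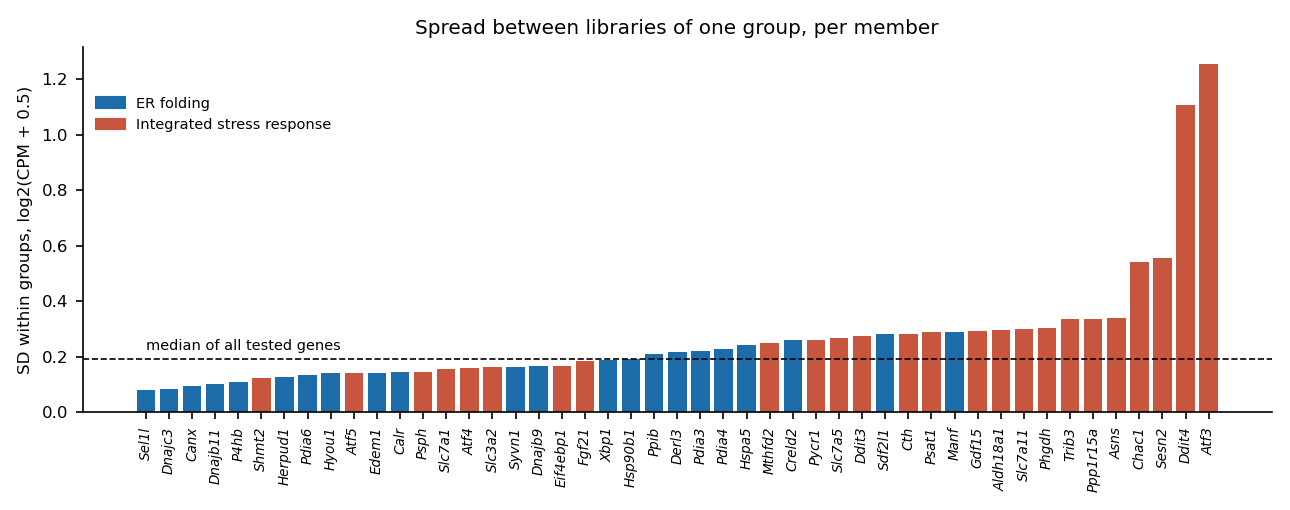
SD within groups of log2 (CPM + 0.5) for each of the 47 members (bars, coloured by arm), pooled over the 4 groups; the dashed line is the median of all 18494 tested genes, 0.19. Atf3 (1.25) and Ddit4 (1.11) stand apart from the rest, of which Sesn2 (0.56) is the highest.

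A few libraries stood apart in the ER folding arm. Among gastrocnemius knockouts, replicate 7 was the highest of its group in 17 of the 22 ER folding genes, and the median of its deviations from the gastrocnemius control mean was 0.20 on the log2 scale. The same library had the highest summed fibroblast markers, 5376 CPM against 3526 to 3731 CPM in the other gastrocnemius knockouts, and the highest macrophage markers, 294 CPM against 153 to 158 CPM. Among soleus controls, replicate 34 was the highest in 13 of 22 ER folding and 12 of 25 integrated stress response genes, with summed immediate-early genes of 515 CPM against 287 to 317 CPM in the other soleus controls. Soleus control 41 was the lowest in 17 of 22 ER folding genes. Soleus knockout 40 was the highest in 13 of 22 and had the highest fibroblast (3095 CPM) and macrophage (160 CPM) markers of the soleus libraries. Gastrocnemius control 1 was the highest of its group in 15 of 22 and had the highest fibroblast markers of the gastrocnemius controls (4441 CPM). The part of these markers in the levels of the members was not tested, and in bulk muscle fewer cells of a type and less RNA per cell cannot be told apart.

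**Figure D2:**
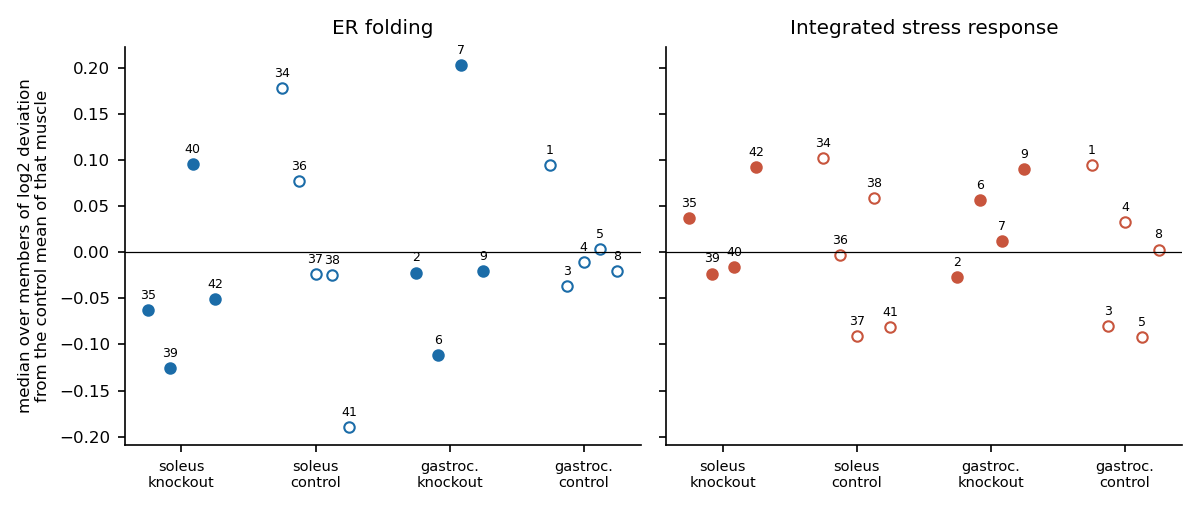
Median over the members of each arm of the log2 deviation of a library from the control mean of its muscle (points, labelled by library number; filled for knockout, open for control), one panel per arm. In the ER folding panel gastrocnemius knockout 7 (0.20) and soleus control 34 (0.18) are the highest points and soleus control 41 (-0.19) the lowest.

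No gene of the ER folding arm passed the test for a change with the knockout in either muscle. By edgeR's quasi-likelihood test 0 of 22 passed an adjusted p of 0.05 in gastrocnemius knockouts against controls, where 3.78% of all 16393 tested genes did, and 0 of 22 in soleus knockouts against controls, where 0.0553% of 18087 did. The background itself changed when single libraries were left out, which also makes a group smaller. The 619 genes called in the gastrocnemius became 206 without control 5, 211 without knockout 6, 261 without control 1 and 278 without control 4. They became 287 without knockout 7, 354 without control 8, 394 without knockout 9, 610 without control 3 and 1080 without knockout 2. The 10 in the soleus became 3 without control 37, 4 without control 34 and 66 without knockout 35. The other soleus fits of this kind gave 7 to 12. DESeq2 and limma voom also called 0 in each muscle. At an unadjusted p under 0.05 edgeR had 1 gene in the gastrocnemius and 0 in the soleus. The median log2 fold change of the arm was -0.011 in the gastrocnemius and -0.069 in the soleus, beside 0.019 and -0.00037 over all tested genes.

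For most of the arm the interval was narrow. The 95% interval of the fold change lay within 1.5-fold in either direction for 20 of 22 genes in the gastrocnemius (not for Creld2 and Derl3) and for 19 of 22 in the soleus (not for Derl3, Hspa5 and Manf), beside 57.4% and 58.3% of all tested genes. Hspa5 had 153, 144, 160.5 and 116 CPM in soleus knockouts, against 240.4, 179.6, 165, 159 and 118 CPM in soleus controls. Hspa5 had 116, 98.4, 134 and 108 CPM in gastrocnemius knockouts, against 142, 131, 126, 129 and 115 CPM in gastrocnemius controls. The groups overlapped in both muscles, and the highest Hspa5 level of all was that of soleus control 34. The log2 fold change of Hspa5 was -0.26 (SE 0.18, adjusted p = 0.767) in the soleus and -0.17 (SE 0.087, adjusted p = 0.304) in the gastrocnemius. Its 95% interval was -0.65 to 0.13 in the soleus and -0.36 to 0.012 in the gastrocnemius. Over the alternatives the soleus value of Hspa5 ran from -0.37 to -0.11, without soleus control 41 and without soleus control 34, and none called it.

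Xbp1 encodes the transcription factor that IRE1 activates. Xbp1 had 32.5, 30.4, 36.4 and 28.7 CPM in soleus knockouts, against 38.5, 36.5, 28.1, 27.99 and 22.4 CPM in soleus controls. Xbp1 had 42.8, 42.99, 46.7 and 38.2 CPM in gastrocnemius knockouts, against 41.3, 39.7, 38.7, 40.7 and 40.8 CPM in gastrocnemius controls. The log2 fold change of Xbp1 was 0.067 (SE 0.14, adjusted p = 0.953) in the soleus and 0.085 (SE 0.067, adjusted p = 0.554) in the gastrocnemius, with overlapping groups in both. Gene-level counts do not separate spliced from unspliced Xbp1.

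One ER folding gene had groups that did not overlap in the gastrocnemius, where 8.41% of all tested genes had such groups, and none had in the soleus, where 2.55% had. Dnajc3 had 36.6, 35.9, 35.5 and 34.3 CPM in gastrocnemius knockouts, against 42.6, 39.8, 38.03, 40.03 and 39.9 CPM in gastrocnemius controls. All 4 knockout values lay below the lowest control, the log2 fold change being -0.17 (SE 0.061, adjusted p = 0.138), short of the threshold. Dnajc3 encodes P58IPK, a co-chaperone that also restrains PERK. In the soleus its log2 fold change was -0.075 (SE 0.074, adjusted p = 0.863).

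The disulfide isomerase genes Pdia3, Pdia4, Pdia6 and P4hb had log2 fold changes of 0.16, 0.16, 0.073 and -0.026 in the gastrocnemius and of 0.055, -0.066, -0.067 and 0.10 in the soleus, none past the threshold. Pdia3 had 41.8, 40.1, 57.6 and 39.2 CPM in gastrocnemius knockouts, against 46.7, 38.4, 38.4, 36.2 and 39.7 CPM in gastrocnemius controls; the high value is that of replicate 7. Without gastrocnemius knockout 7 the median of the whole arm in the gastrocnemius was -0.066 in place of -0.011, with 0 of 22 genes called, and it was 0.056 without gastrocnemius knockout 6, 0.038 without gastrocnemius control 1, 0.027 without gastrocnemius knockout 2 and 0.0010 without gastrocnemius control 5, each with 0 called. The 5 genes of ER-associated degradation (Sel1l and Syvn1, the core of its ubiquitin ligase, with Herpud1, Edem1 and Derl3) ranged from -0.088 to 0.24 in the gastrocnemius and from -0.32 to 0.010 in the soleus, again with 0 called.

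The 9 genes with an ER stress element in the window had log2 fold changes from -0.17 to 0.24 in the gastrocnemius, with a median of -0.020, and from -0.32 to -0.067 in the soleus, with a median of -0.13. In the soleus all 9 values were thus below 0, and 0 of them passed the threshold. Without soleus control 34 all 9 remained below 0, from -0.35 to -0.00086, with a median of -0.073. For this set of genes no other library was left out. In the whole arm 6 of 22 values were above 0 in the soleus. With 1 soleus library left out this number ran from 2, without control 41, to 9, without control 36. The 11 ER folding genes whose window held no such match had medians of -0.0028 in the gastrocnemius and -0.0085 in the soleus. The difference between these sets of genes is given as a description and was not tested.

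**Figure D3:**
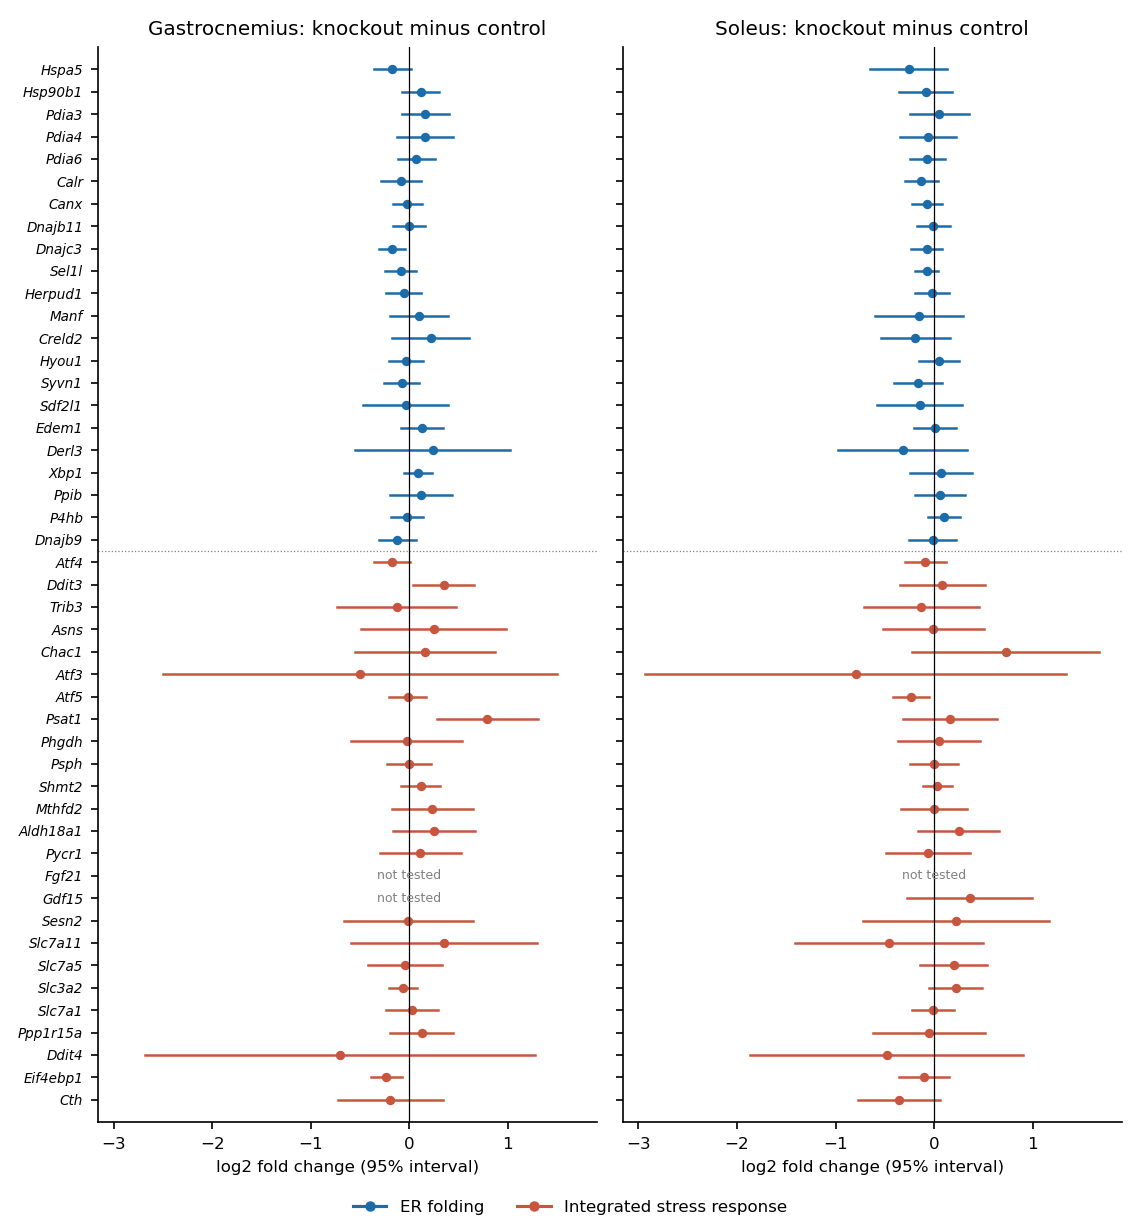
Log2 fold change of knockout over control (points) with its 95% interval (lines) for each member, gastrocnemius on the left and soleus on the right, ER folding above the dotted line and integrated stress response below it. The ER folding points lie between -0.32 and 0.24, and the widest intervals are those of Atf3 and Ddit4.

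No gene of the integrated stress response arm passed edgeR's threshold with the knockout either. edgeR called 0 of 23 tested genes in gastrocnemius knockouts against controls and 0 of 24 in soleus knockouts against controls, with 3 and 1 at an unadjusted p under 0.05; limma voom also called 0 in each. DESeq2 called 2 in the gastrocnemius (Psat1 and Eif4ebp1) and 0 in the soleus. Over all genes DESeq2 called 1235 of 16393 in the gastrocnemius and 166 of 18087 in the soleus. The median log2 fold change of the arm was -0.0035 in the gastrocnemius and -0.0021 in the soleus. Intervals were wider than in the other arm, lying within 1.5-fold for 10 of 23 genes in the gastrocnemius and for 13 of 24 in the soleus, and within 2-fold for 19 of 23 and 19 of 24. For genes such as Atf3, Ddit4, Chac1 and Slc7a11 a change of 2-fold was therefore within the interval in at least 1 muscle.

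Among the transcription factors, Atf4 itself did not pass the threshold. Atf4 had 112, 105, 88.6 and 94.6 CPM in soleus knockouts, against 128, 107, 97.3, 111 and 91.8 CPM in soleus controls. Atf4 had 114, 111, 89.5 and 125 CPM in gastrocnemius knockouts, against 125, 114, 122, 128 and 130.3 CPM in gastrocnemius controls. The groups overlapped in both muscles, and the log2 fold change of Atf4 was -0.091 (SE 0.10, adjusted p = 0.875) in the soleus and -0.17 (SE 0.086, adjusted p = 0.304) in the gastrocnemius. ATF4 is regulated mainly through translation, which mRNA counts do not measure. Ddit3 encodes CHOP, a factor downstream of ATF4 linked to cell death. Ddit3 had 6.99, 8.14, 6.41 and 10.8 CPM in gastrocnemius knockouts, against 6.09, 6.93, 7.05, 5.92 and 5.84 CPM in gastrocnemius controls. Ddit3 had 14.5, 16.8, 14.8 and 26.7 CPM in soleus knockouts, against 21.5, 13.9, 17.5, 18.2 and 15.4 CPM in soleus controls. Gastrocnemius knockout 9 and soleus knockout 42 were the highest of their groups, and the groups overlapped. The log2 fold change of Ddit3 was 0.35 (SE 0.15, adjusted p = 0.208) in the gastrocnemius, with a 95% interval of 0.038 to 0.66, and 0.083 (SE 0.19, adjusted p = 0.955) in the soleus. The files do not state whether counting used strand, and Ddit3 overlaps Mars on the other strand, whose mean count was 307% of its own, so reads of these genes may be mixed. Atf5, a related factor linked to the mitochondrial stress response, had the smallest unadjusted p of the arm in the soleus, with 111, 95.6, 82.9 and 91.9 CPM in soleus knockouts, against 121, 102, 106, 120.3 and 114 CPM in soleus controls. These groups overlapped through soleus knockout 35, and the log2 fold change of Atf5 was -0.23 (SE 0.084, adjusted p = 0.487).

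Of the amino acid enzymes, Psat1 had gastrocnemius groups that did not overlap. The gene encodes phosphoserine aminotransferase, the middle enzyme of serine synthesis. Psat1 had 1.91, 1.79, 3.03 and 1.79 CPM in gastrocnemius knockouts, against 1.46, 1.18, 1.59, 0.956 and 0.948 CPM in gastrocnemius controls. Every knockout library lay above every control, with replicate 7 the highest. The log2 fold change of Psat1 was 0.79 (SE 0.24, adjusted p = 0.0836), a 1.73-fold difference of low counts that edgeR did not call. DESeq2 called it with an adjusted p of 0.0291, and over the 15 alternatives the edgeR, DESeq2 and voom values of Psat1 ran from 0.58 to 0.89 with adjusted p from 0.0291 to 0.245. In the soleus it had 1.31, 2.34, 2.43 and 3.32 CPM in knockouts, against 2.38, 2.25, 1.91, 1.91 and 2.16 CPM in controls, the log2 fold change being 0.16 (SE 0.22, adjusted p = 0.913). The difference between the muscles in the effect on Psat1 was -0.64 (soleus minus gastrocnemius, SE 0.33, adjusted p = 0.95). The log2 fold changes of the enzymes before and after it in the gastrocnemius were smaller: Phgdh had -0.027 and Psph -0.0035.

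Asns encodes asparagine synthetase, a classic target of ATF4. Asns had 0.644, 1.32, 1.75 and 1.14 CPM in gastrocnemius knockouts, against 1.87, 0.803, 0.738, 0.903 and 0.754 CPM in gastrocnemius controls. Asns had 1.25, 1.26, 1.41 and 1.02 CPM in soleus knockouts, against 1.62, 1.54, 1.29, 1.02 and 0.722 CPM in soleus controls. Gastrocnemius control 1 was the highest Asns value of all, and the groups overlapped. The log2 fold change of Asns was 0.25 (SE 0.34, adjusted p = 0.774) in the gastrocnemius and -0.0057 (SE 0.24, adjusted p = 0.999) in the soleus. Without gastrocnemius control 1 the gastrocnemius value of Asns was 0.60 with an adjusted p of 0.369. Over the 9 genes of serine, one-carbon, proline, asparagine and cysteine metabolism the log2 fold changes ran from -0.19 to 0.79 in the gastrocnemius and from -0.35 to 0.25 in the soleus.

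Eif4ebp1, the gene of a repressor of cap-dependent translation, was the other tested gene of this arm whose gastrocnemius groups did not overlap, which makes 2 of 23, beside 8.41% of all tested genes. Eif4ebp1 had 44.5, 40.03, 35.7 and 40.6 CPM in gastrocnemius knockouts, against 44.5, 46.6, 48.4, 50.4 and 46.8 CPM in gastrocnemius controls. All knockout values lay below the lowest control value, the nearest pair being close together, and the log2 fold change was -0.23 (SE 0.074, adjusted p = 0.0935). Eif4ebp1 passed the threshold with DESeq2 (adjusted p = 0.0473) and without gastrocnemius knockout 2 (adjusted p = 0.0322). In the soleus it was -0.10 (SE 0.12, adjusted p = 0.896).

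Of the secreted hormones, Fgf21 in both muscles and Gdf15 in the gastrocnemius were near the limit of detection. Fgf21 had counts of 0, 0, 2 and 0 in soleus knockouts, 0, 0, 2, 0 and 0 in soleus controls, 0, 2, 0 and 18 in gastrocnemius knockouts and 1, 0, 4, 0 and 0 in gastrocnemius controls. It failed the low-count filter everywhere, and gastrocnemius knockout 9 alone held 18 of the 20 counts of its group. Gdf15 had counts of 17, 20, 17 and 10 in gastrocnemius knockouts, against 7, 2, 6, 8 and 3 in gastrocnemius controls. All 4 knockout counts exceeded the highest control count of 8, but relative to library size the groups overlapped, with 0.19 CPM in gastrocnemius knockout 9 and 0.212 CPM in gastrocnemius control 5. Gdf15 was filtered out of the gastrocnemius comparison; the fit of all 18 libraries, which held it, gave a log2 fold change of 1.47 (adjusted p = 0.0672), and the fit with no low-count filter gave 1.45 (adjusted p = 0.201). In the soleus Gdf15 had 1.63, 2.01, 0.9399 and 1.23 CPM in knockouts, against 1.81, 1.07, 1.2, 0.984 and 0.616 CPM in controls, and its log2 fold change was 0.36 (SE 0.29, adjusted p = 0.818). The interval of the difference between the muscles in the effect on Gdf15 included 0, at -1.12 (SE 0.55, adjusted p = 0.921).

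The knockout effect was not shown to differ between the muscles for any member. The direct test of that difference called 0 of 22 ER folding and 0 of 24 integrated stress response genes with edgeR, with 0 and 0 at an unadjusted p under 0.05, where 0.0703% of all 18494 tested genes were called; DESeq2 and limma voom also called 0.

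Genes of 4 related lists were compared between knockout and control in the same way. Of 19 genes for the stress sensors, eIF2 kinases and their partners, edgeR, DESeq2 and limma voom called 0 in each muscle, with 2 in the gastrocnemius and 0 in the soleus at an unadjusted edgeR p under 0.05. Of 30 other tested genes of the ATF4 and amino acid response 0 were called in the gastrocnemius and 0 of 31 in the soleus by edgeR, with 6 and 3 at an unadjusted p under 0.05, while DESeq2 called 1 in each and limma voom 1 in the gastrocnemius. Of 9 mitochondrial chaperone and protease genes, Trap1, a mitochondrial HSP90, was lower in gastrocnemius knockouts at -0.34 (SE 0.068, adjusted p = 0.0159). In the soleus all 3 tools called 0 of these 9, with 0 at an unadjusted p under 0.05. Of 11 cytosolic heat shock genes 0 were called by edgeR in either muscle, with 1 in the gastrocnemius and 0 in the soleus at an unadjusted p under 0.05, and none by DESeq2 or limma voom. The share of all genes at an unadjusted p under 0.05 is not given here, for any of the lists. Beside these counts, 7 of 9 macrophage markers had an unadjusted p under 0.05 in the gastrocnemius (median log2 fold change 0.60), with summed levels of 153 to 294 CPM in knockouts, against 113 to 164 CPM in controls. The 294 CPM was that of replicate 7, while the other knockouts had 153 to 158 CPM, within the range of controls. Cd163, in the same list, had a mean of 22.3 CPM in knockouts, against 26.2 CPM in controls. Of the 8 markers listed as slow-fibre, Myh2 included, edgeR called 1 in the gastrocnemius, Myl2, and DESeq2 called 3. Of these 8, 5 had an unadjusted edgeR p under 0.05 (median log2 fold change of the list -0.75). Their summed levels were 3072 to 4255 CPM in knockouts, against 4070 to 4810 CPM in controls. In the soleus 7 of the 8 had an unadjusted p under 0.05, with a median of -0.35 and summed levels of 24496 to 34979 CPM in knockouts, against 34185 to 39022 CPM in controls. The part of fibre types and macrophages in the members' values was not tested.

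The same genes did differ between the muscles. In controls 9 of 22 ER folding genes (40.9%) passed the threshold between soleus and gastrocnemius, 5 higher and 4 lower in the soleus, beside 49.3% of all 18494 tested genes (27.4% higher and 21.9% lower). In knockout mice 4 of 22 (18.2%) passed, 1 higher and 3 lower, beside 37.8% of all genes (19.2% higher and 18.5% lower). With this scaling the share of the arm was below that of all genes in knockouts and nearer to it in controls. With library totals in place of TMM, 12 were higher and 1 lower in controls, beside 8386 higher and 2122 lower of all genes. The control share of the arm was then not below that of all genes. The gap between the shares was not tested. The medians of the arm, 0.015 in controls and -0.025 in knockouts, lay close to those of all genes, 0.084 and 0.032. Both comparisons came from 1 fit of all 18 libraries, and no label states whether both muscles came from the same mice. Markers of other cells differed between the muscles too. The summed level of 8 fibroblast markers was 1365 to 2202 CPM in soleus controls, against 2551 to 4441 CPM in gastrocnemius controls, and 5 of 8 were lower in the soleus. That of 10 plasma and B cell markers was 3.09 to 6.78 CPM in soleus controls, against 35.2 to 71.9 CPM in gastrocnemius controls, with 1 of 6 tested lower. Ighm held nearly all of this gap, with means of 1.58 CPM in soleus controls and 49.4 CPM in gastrocnemius controls. Mzb1 had 1.09 and 0.92 CPM and Igkc 0.951 and 0.963 CPM, in that order. The rest of this list had lower means and lay in both directions. The summed level of 6 Schwann cell markers was 67.2 to 240.0 CPM in soleus controls, against 215 to 373 CPM in gastrocnemius controls, with 4 of 6 lower. All 5 endothelial markers were higher in soleus controls. The part of these cells in the differences of the members was not tested.

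The lectin chaperone genes lay in opposite directions. Canx had 142, 146, 151, 139 and 130.0 CPM in soleus controls, against 109.8, 99.97, 98.6, 96.6 and 108 CPM in gastrocnemius controls. Canx had 132, 138, 123 and 144 CPM in soleus knockouts, against 95.5, 94.4, 113 and 102 CPM in gastrocnemius knockouts. The muscles did not overlap in either genotype. The log2 difference of Canx, the membrane-bound lectin chaperone, was 0.47 (SE 0.065, adjusted p = 3.57e-06) in controls and 0.41 (SE 0.072, adjusted p = 0.00011) in knockouts. Its soluble counterpart Calr was lower in the soleus. Calr had 118, 105, 119, 115 and 108 CPM in soleus controls, against 158, 122, 147, 146 and 141 CPM in gastrocnemius controls. Calr had 105, 96.1, 117 and 94.7 CPM in soleus knockouts, against 129, 120.1, 165 and 123 CPM in gastrocnemius knockouts. The muscles again did not overlap, and the log2 difference of Calr was -0.33 (SE 0.086, adjusted p = 0.00288) in controls and -0.38 (SE 0.10, adjusted p = 0.00339) in knockouts. Both calls of Calr were lost when libraries were scaled by their totals alone (adjusted p = 0.543 and 0.239).

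Herpud1 had the smallest adjusted p of this arm in both genotypes. Herpud1 had 66.2, 81.9, 68.9, 70.04 and 76.03 CPM in soleus controls, against 98.5, 116, 109, 124 and 122 CPM in gastrocnemius controls. Herpud1 had 78.9, 65.7, 69.05 and 71.5 CPM in soleus knockouts, against 98.05, 103, 119 and 118 CPM in gastrocnemius knockouts. The lowest gastrocnemius library stood above the highest soleus library. The log2 difference of Herpud1 was -0.65 (SE 0.079, adjusted p = 5.29e-07) in controls and -0.62 (SE 0.088, adjusted p = 7.83e-06) in knockouts, or 0.638 and 0.651 times the gastrocnemius level. Xbp1 was lower in the soleus too, at -0.39 (SE 0.11, adjusted p = 0.00525) in controls and -0.41 (SE 0.12, adjusted p = 0.01) in knockouts. Its levels, given above, did not overlap between the muscles of one genotype, and its calls were lost under scaling by library totals (adjusted p = 0.359 and 0.254).

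The other 5 ER folding calls were made in controls, and 4 of them depended on single libraries. Hspa5, whose levels are given above, was higher in the soleus at 0.42 (SE 0.14, adjusted p = 0.0185), with overlapping muscles and a top value from soleus control 34. Without that library its adjusted p was 0.0532. In knockouts Hspa5 had 0.33 (SE 0.16, adjusted p = 0.106), past the threshold without soleus control 34 or 41 and under scaling by library totals (adjusted p = 0.00823 to 0.0396). Hsp90b1 had 73.6, 63.1, 59.1, 54.5 and 46.1 CPM in soleus controls, against 49.3, 43.6, 43.8, 45.3 and 46.8 CPM in gastrocnemius controls. Hsp90b1, the ER form of HSP90 (GRP94), had a log2 difference of 0.37 (SE 0.11, adjusted p = 0.00772) in controls and 0.16 (SE 0.12, adjusted p = 0.308) in knockouts, with soleus controls 34 highest and 41 lowest. Its overlap with another gene on the opposite strand, at 11.6% of its mean count, makes its level uncertain. Manf had 20.1, 14.8, 13.1, 14.01 and 9.75 CPM in soleus controls, against 12.97, 8.94, 10.1, 10.04 and 9.09 CPM in gastrocnemius controls. Manf, a secreted ER stress factor, had a log2 difference of 0.49 (SE 0.18, adjusted p = 0.0289), and its adjusted p was 0.0515 to 0.0922 without soleus control 34, without gastrocnemius control 3, 4, 5 or 8, and with no low-count filter. Manf overlaps Dcaf1 and Rbm15b, with mean counts of 207% and 111% of its own, so its reads are uncertain. Derl3 had 0.648, 0.832, 0.862, 0.462 and 0.686 CPM in soleus controls, against 0.2796, 0.535, 0.413, 0.478 and 0.215 CPM in gastrocnemius controls. Derl3 had a log2 difference of 0.88 (SE 0.31, adjusted p = 0.0213), lost without gastrocnemius control 1 or 8 or soleus control 37 (adjusted p = 0.0549 to 0.0645). Dnajb9 had 28.6, 25.4, 23.1, 22.2 and 21.7 CPM in soleus controls, against 29.5, 28.7, 24.9, 33.3 and 27.97 CPM in gastrocnemius controls. The control muscles overlapped for Manf, Derl3 and Dnajb9. Dnajb9, a co-chaperone of BiP, had a log2 difference of -0.26 (SE 0.10, adjusted p = 0.0358), lost without gastrocnemius control 1, 3 or 5 or soleus control 37, 38 or 41 and, at 0.0075 with the sign turned, under scaling by library totals (adjusted p = 0.0507 to 0.953).

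In the integrated stress response arm 11 of 24 genes (45.8%) differed between soleus and gastrocnemius controls, 6 higher and 5 lower in the soleus, and 9 of 24 (37.5%) between soleus and gastrocnemius knockouts, 5 higher and 4 lower. Over all genes the shares were 49.3% and 37.8%. Of the 9 ER folding calls in controls, 4 were called in knockouts too with the same sign (44.4% of the control calls and 100% of the 4 knockout calls). In the integrated stress response arm 8 of the 11 control calls were shared in this way (72.7%, and 88.9% of the 9 knockout calls). Together these were 12 of the 46 tested members, beside 33.8% of all tested genes. Over all genes 68.6% of the control calls and 89.5% of the knockout calls were shared.

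The widest differences lay among target genes. Chac1 encodes an enzyme that degrades glutathione and is a marker of ATF4 activity. Chac1 had 4.96, 6.16, 8.76, 8.65 and 18.3 CPM in soleus controls, against 42.04, 47.3, 109.8, 49.4 and 67.2 CPM in gastrocnemius controls. Chac1 had 8.75, 15.7, 20.5 and 16.5 CPM in soleus knockouts, against 62.6, 72.6, 89.8 and 56.8 CPM in gastrocnemius knockouts. Every gastrocnemius library exceeded every soleus library. The log2 difference of Chac1 was -2.75 (SE 0.38, adjusted p = 2.31e-05) in controls and -2.19 (SE 0.41, adjusted p = 0.000618) in knockouts, 0.148 and 0.218 times the gastrocnemius level. Gdf15 ran the other way. Gdf15 had 1.81, 1.07, 1.2, 0.984 and 0.616 CPM in soleus controls, against 0.151, 0.0535, 0.177, 0.212 and 0.0646 CPM in gastrocnemius controls. Gdf15 had 1.63, 2.01, 0.9399 and 1.23 CPM in soleus knockouts, against 0.391, 0.471, 0.419 and 0.1899 CPM in gastrocnemius knockouts. The muscles did not overlap in either genotype, and the log2 difference of Gdf15 was 3.11 (SE 0.39, adjusted p = 8.2e-07) in controls and 2.00 (SE 0.37, adjusted p = 0.000216) in knockouts. The gastrocnemius values rest on counts of 2 to 20 per library.

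Ddit3 was higher in the soleus. Its levels, given above, did not overlap between the muscles, and its log2 difference was 1.44 (SE 0.17, adjusted p = 1.22e-06) in controls and 1.17 (SE 0.19, adjusted p = 7.24e-05) in knockouts, with the reservation on Mars. Atf4 differed by -0.21 (SE 0.091, adjusted p = 0.0615) in controls, past the threshold with RLE scaling (0.0289), DESeq2 (0.0294) and without gastrocnemius control 3, gastrocnemius knockout 7 or soleus control 34 (0.0133 to 0.0458), and by -0.13 (SE 0.10, adjusted p = 0.322) in knockouts. Atf5 was higher in the soleus. Atf5 had 121, 102, 106, 120.3 and 114 CPM in soleus controls, against 80.6, 69.03, 85.2, 70.1 and 70.3 CPM in gastrocnemius controls. Atf5 had 111, 95.6, 82.9 and 91.9 CPM in soleus knockouts, against 70.8, 71.5, 68.4 and 85.8 CPM in gastrocnemius knockouts. The control muscles did not overlap and the knockout muscles did. The log2 difference of Atf5 was 0.59 (SE 0.085, adjusted p = 5.94e-06) in controls and 0.36 (SE 0.094, adjusted p = 0.00421) in knockouts, and an overlapping gene on the other strand reached 24.7% of its mean count.

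The enzymes of amino acid synthesis differed in direction. Cth, the last enzyme of the pathway from methionine to cysteine, was higher in the soleus. Cth had 5.07, 7.004, 4.71, 5.34 and 4.29 CPM in soleus controls, against 1.59, 1.63, 0.944, 1.35 and 1.62 CPM in gastrocnemius controls. Cth had 5.73, 4.38, 3.03 and 3.37 CPM in soleus knockouts, against 1.702, 0.871, 1.26 and 1.18 CPM in gastrocnemius knockouts. Every soleus library lay above every gastrocnemius library. The log2 difference of Cth was 1.88 (SE 0.21, adjusted p = 1.2e-07) in controls and 1.72 (SE 0.23, adjusted p = 3.9e-06) in knockouts, 3.68 and 3.29 times the gastrocnemius level. Pycr1, an enzyme of proline synthesis, was lower in the soleus. Pycr1 had 2.01, 1.64, 1.62, 2.39 and 2.04 CPM in soleus controls, against 3.46, 3.27, 2.98, 4.46 and 4.61 CPM in gastrocnemius controls. Pycr1 had 1.57, 1.401, 2.12 and 2.27 CPM in soleus knockouts, against 2.69, 4.38, 5.15 and 4.05 CPM in gastrocnemius knockouts. Its muscles did not overlap, with log2 differences of -0.96 (SE 0.19, adjusted p = 0.000218) in controls and -1.14 (SE 0.21, adjusted p = 0.00018) in knockouts.

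The genes of serine synthesis differed in direction. Psph, the phosphatase of its last step, was lower in the soleus. Psph had 7.55, 7.198, 6.14, 7.21 and 6.49 CPM in soleus controls, against 10.97, 8.57, 9.77, 9.19 and 9.61 CPM in gastrocnemius controls. Psph had 7.32, 7.698, 7.03 and 5.52 CPM in soleus knockouts, against 9.34, 8.42, 10.8 and 9.78 CPM in gastrocnemius knockouts. The muscles did not overlap and the log2 difference of Psph was -0.48 (SE 0.10, adjusted p = 0.0005) in controls and -0.48 (SE 0.11, adjusted p = 0.00202) in knockouts, both lost under scaling by library totals (adjusted p = 0.0781 and 0.0764). Psat1, one step before it, was higher in soleus than in gastrocnemius controls at 0.79 (SE 0.23, adjusted p = 0.00604), and at 0.15 (SE 0.24, adjusted p = 0.665) in knockouts. Phgdh, the first step, had -0.28 (SE 0.23, adjusted p = 0.315) in controls. Mthfd2 had 2.56, 3.898, 2.88 and 3.14 CPM in soleus knockouts, against 2.76, 4.92, 4.16 and 5.64 CPM in gastrocnemius knockouts. Mthfd2, a mitochondrial enzyme of one-carbon metabolism, had overlapping muscles and was lower in soleus than in gastrocnemius knockouts at -0.48 (SE 0.19, adjusted p = 0.049), a call lost under 17 of 24 alternatives (adjusted p = 0.0513 to 0.294). The libraries whose absence ended it were gastrocnemius knockouts 6, 7 and 9, gastrocnemius controls 1, 3, 4 and 5, soleus knockouts 35, 40 and 42 and soleus controls 34, 36, 38 and 41.

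Amino acid transporters went in opposite directions. Slc7a1 carries cationic amino acids. Slc7a1 had 12.1, 11.1, 11.4, 13.9 and 10.9 CPM in soleus controls, against 7.83, 6.08, 6.61, 5.55 and 6.38 CPM in gastrocnemius controls. Slc7a1 had 10.3, 10.96, 12.5 and 13.03 CPM in soleus knockouts, against 5.54, 6.94, 7.29 and 6.67 CPM in gastrocnemius knockouts. The muscles did not overlap, and the log2 difference of Slc7a1 was 0.87 (SE 0.10, adjusted p = 4.92e-07) in controls and 0.82 (SE 0.12, adjusted p = 7.44e-06) in knockouts. The subunits of the large neutral amino acid transporter, Slc7a5 and Slc3a2, were lower in the soleus of controls. Slc3a2 had 21.5, 23.1, 17.9, 23.6 and 22.3 CPM in soleus controls, against 30.9, 29.3, 29.8, 32.3 and 30.7 CPM in gastrocnemius controls. Slc3a2, the heavy chain, had a log2 difference of -0.50 (SE 0.10, adjusted p = 0.000211) in controls and -0.22 (SE 0.11, adjusted p = 0.114) in knockouts. Slc7a5 had 5.88, 5.66, 5.0, 6.14 and 4.29 CPM in soleus controls, against 8.24, 8.35, 7.38, 6.22 and 6.59 CPM in gastrocnemius controls. The control muscles did not overlap for either subunit. Slc7a5, the light chain, had -0.45 (SE 0.16, adjusted p = 0.0282) in controls and -0.21 (SE 0.18, adjusted p = 0.393) in knockouts, and its control call was lost without gastrocnemius control 1 or 3 or soleus control 37 or 41 (adjusted p = 0.0617 to 0.365, the highest under scaling by library totals). Slc3a2 also lost its control call under that scaling (0.0544).

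**Figure D4:**
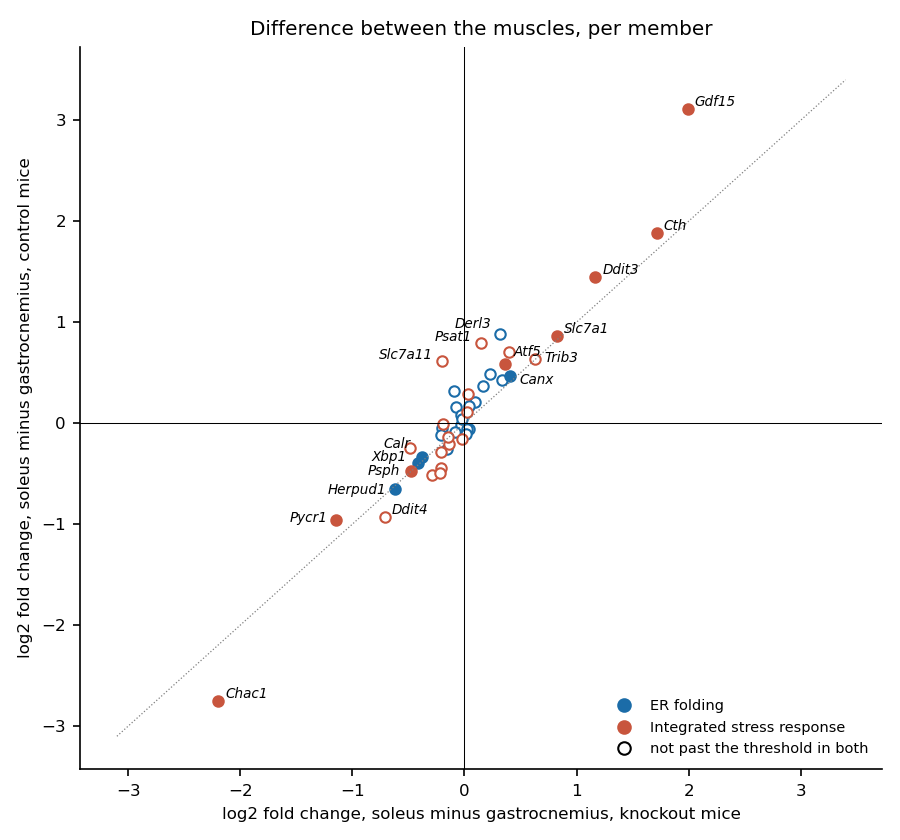
Log2 difference between soleus and gastrocnemius for each of the 46 tested members, in knockout mice (x axis) and control mice (y axis), coloured by arm and filled where both passed the threshold; the dotted line marks equal values. Gdf15, Cth and Ddit3 lie at the upper right and Chac1 at the lower left, while ER folding genes lie near the centre.

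The balance of calls between the muscles depended on the scaling. With library totals in place of TMM the median log2 difference of all genes was 0.35 in controls and 0.27 in knockouts, in place of 0.084 and 0.032, and the split of ER folding calls was 12 higher and 1 lower in controls, in place of 5 and 4, and 6 higher and 1 lower in knockouts, in place of 1 and 3. In the integrated stress response arm it was 8 higher and 2 lower in controls, in place of 6 and 5, and 7 higher and 2 lower in knockouts, in place of 5 and 4. All genes moved the same way, to 8386 higher and 2122 lower in controls, in place of 5074 and 4048, and to 6339 higher and 1751 lower in knockouts, in place of 3560 and 3427. Chac1, Cth, Gdf15, Ddit3, Slc7a1, Atf5, Pycr1, Canx and Herpud1 kept direction and call under every alternative in both genotypes.

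Related genes outside the list lay in both directions between the muscles. Over all genes 49.3% were called in controls and 37.8% in knockouts, which is the background of the counts that follow. Of the 19 sensor and kinase genes 3 were higher and 6 lower in soleus than in gastrocnemius, in controls and in knockouts alike. Eif2b2, a subunit of the eIF2B exchange factor, had a log2 difference of -0.90 (SE 0.071, adjusted p = 6.43e-10) in controls and -0.71 (SE 0.079, adjusted p = 2.64e-07) in knockouts. Eif2ak1, the haem-regulated eIF2 alpha kinase, had -0.67 (SE 0.060, adjusted p = 5.51e-09) in controls and -0.54 (SE 0.067, adjusted p = 1.33e-06) in knockouts. Of the genes of the ER stress sensors, chosen after their values were seen, Atf6 and Ern1, which encodes IRE1, were higher in soleus controls, at 0.47 (SE 0.069, adjusted p = 7.22e-06) for Atf6 and 0.49 (SE 0.10, adjusted p = 0.00033) for Ern1. Eif2ak3, which encodes PERK, had 0.12 (SE 0.088, adjusted p = 0.251) and did not pass the threshold.

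Of 30 other ER folding genes 9 were higher and 10 lower in soleus than in gastrocnemius controls, and 6 higher and 11 lower in knockouts. Wfs1, the gene of an ER membrane protein, had a log2 difference of 1.18 (SE 0.081, adjusted p = 6.63e-11) in controls and 1.36 (SE 0.090, adjusted p = 8.78e-11) in knockouts. Vcp, the ATPase that extracts proteins from the ER membrane, had -0.60 (SE 0.052, adjusted p = 3.71e-09) in controls and -0.49 (SE 0.058, adjusted p = 7.57e-07) in knockouts. Sil1, a nucleotide exchange factor of BiP, had -0.85 (SE 0.092, adjusted p = 9.67e-08) in controls. Of 31 other ATF4 and amino acid response genes 3 were higher and 11 lower in controls, and 3 and 10 in knockouts. Gpt2, an alanine aminotransferase, had -2.91 (SE 0.26, adjusted p = 1.87e-07) in controls and -2.67 (SE 0.29, adjusted p = 2.66e-06) in knockouts. Sqstm1, an autophagy receptor, had -0.71 (SE 0.055, adjusted p = 5.79e-10) in controls and -0.57 (SE 0.062, adjusted p = 1.64e-07) in knockouts. Ddit4l, a relative of Ddit4, had -2.84 (SE 0.27, adjusted p = 5.88e-07) in knockouts, and Creb3l1, an ER-membrane factor of the ATF6 type, had -1.36 (SE 0.18, adjusted p = 5.15e-06) in knockouts. Of 9 mitochondrial genes 2 were higher and 2 lower in either genotype, Trap1 at -0.64 (SE 0.059, adjusted p = 9.44e-09) in controls, and of 11 heat shock genes 2 were higher and 3 lower.

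**Figure D5:**
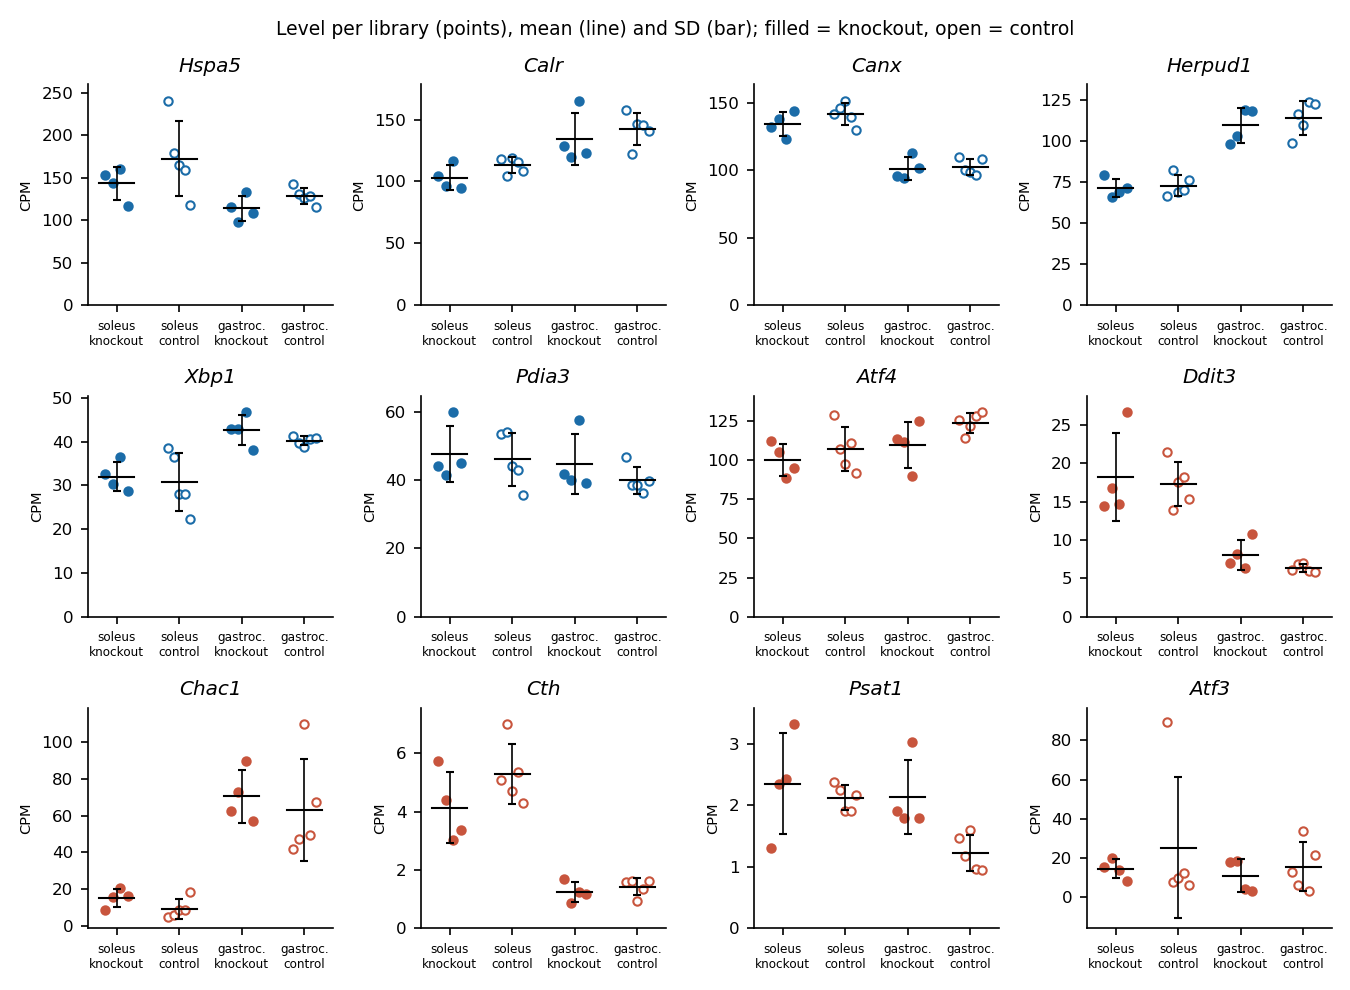
CPM per library (points; filled for knockout, open for control) with the group mean (line) and SD (bar) for 12 members, the groups in the order soleus knockout, soleus control, gastrocnemius knockout and gastrocnemius control. Knockout and control overlap within each muscle except for Psat1 in the gastrocnemius, while Calr, Canx, Herpud1, Ddit3, Chac1 and Cth separate the muscles; the single high Atf3 point is soleus control 34 at 89.6 CPM.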

How the data were processed

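Total RNA depleted of ribosomal RNA from soleus and gastrocnemius was sequenced by the authors; the submitters' processing notes name featureCounts 1.4.6-p5, Subread, STAR 2.5.1a and bcl2fastq, and the build GRCm38. The annotation version, whether counting used strand, and how multi-mapping reads were handled were each not given in the sources used here. Deposited counts are whole reads per Ensembl gene, unnormalized, per the file headers. The deposited CPM and RPKM values were recomputed from the counts to check them; the deposited RPKM served for comparing genes, while levels are printed as CPM computed with TMM library sizes. Symbols were matched for 40254 of 41388 identifiers.

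Groups were taken from the titles. Knockout and control were compared in each muscle from that muscle's libraries, and the muscles, together with the difference of the knockout effects, from 1 fit of all 18 libraries. Counts were scaled by TMM, filtered with filterByExpr (minimum count 10, minimum total 15) and tested with edgeR's robust quasi-likelihood test (edgeR 4.0.16, limma 3.58.1, R 4.3.3), tested on simulated data first. Fold changes are log2, p-values are Benjamini-Hochberg adjusted over all genes tested, with a threshold of 0.05, and intervals are 95%. Spread was taken on log2 of CPM plus 0.5. Alternatives were RLE scaling, library totals, DESeq2 1.42.0, limma voom, no filter, 1 fit of all libraries, each library left out and, chosen after seeing the data, a block for putative pairs of libraries.

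Full values are given for members past the threshold and for Hspa5, Xbp1, Atf4, Ddit3, Asns, Fgf21 and Gdf15, and by name for at most 8 genes of the related lists per comparison; Dnajc3, Psat1, Eif4ebp1, Atf5, Pdia3 and Ddit4 in the knockout comparisons were added after their values were seen. The members and lists were chosen with earlier results of these data known. No 2 libraries agreed within sampling noise, so none were merged. Promoter windows came from RefSeq (GRCm38.p6). Library totals were 39.0 to 78.2 M counts. Knockout results for the other ER folding and degradation genes are not reported here.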

Additional observations from a re-analysis of the deposited data

Results flagged for a closer look

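In 12 of 196 checks of a member, or of the median of an arm, within a group, 1 library lay far from the others; a check of this kind is expected to pick out about 1 in 20 groups by chance. Gastrocnemius knockout 7 was picked out for 3 genes, with Pdia3 at 57.6 CPM against 39.2 to 41.8 CPM in the other knockouts, Pdia6 at 38.4 CPM against 28.1 to 29.3 CPM, and Psat1 at 3.03 CPM against 1.79 to 1.91 CPM. Pdia6 was also high in soleus knockout 40, at 31.1 CPM against 25.6 to 26.4 CPM. Asns was high in gastrocnemius control 1 (1.87 CPM against 0.738 to 0.903 CPM) and Mthfd2 in gastrocnemius control 8 (4.78 CPM against 3.29 to 3.54 CPM). Among soleus controls, Chac1 was high in replicate 41 (18.3 CPM against 4.96 to 8.76 CPM) and Atf3 in replicate 34 (89.6 CPM against 6.13 to 12.3 CPM). For Fgf21 the library picked out was gastrocnemius knockout 9 at 0.342 CPM, gastrocnemius control 4 at 0.118 CPM, soleus knockout 40 at 0.0376 CPM and soleus control 37 at 0.0233 CPM, all of very few counts. In each soleus group only 1 library had any Fgf21 count, so the check was bound to pick it out there.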

How the results depend on the processing

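With library totals in place of TMM, 7 ER folding genes passed between soleus and gastrocnemius knockouts, in place of 4, and Dnajb9 turned to 0.0075 in controls, in place of -0.26. DESeq2 called 2 integrated stress response genes with the knockout in the gastrocnemius, in place of 0, and leaving out 1 library gave 0 to 1, the 1 without knockout 2. The other counts of called members stayed within 1.5 times under the alternatives run; with 1 library left out they ran, between soleus and gastrocnemius, from 7 to 9 and 10 to 13 in controls and from 4 to 5 and 8 to 10 in knockouts, for the ER folding and integrated stress response arms in that order. Over all genes the gastrocnemius count of 619 was 1235 with DESeq2, the soleus count of 10 was 166 with DESeq2, 48 with no filter and 28 in the fit of all libraries, and the difference count of 13 was 52 with DESeq2 and 7 with limma voom. With 1 library left out these all-gene counts ran from 206 to 1080 in the gastrocnemius, from 3 to 66 in the soleus and from 2 to 23 for the difference. In the gastrocnemius knockout comparison the all-gene split was 347 higher and 163 lower with library totals, in place of 290 and 329. Low counts limit Fgf21, Gdf15 in the gastrocnemius and Slc7a11. The groups share no replicate number, but the soleus numbers follow the genotypes in the same order as the gastrocnemius numbers. Paired in that order, which no label states, the deviations from the group means correlated at 0.080 to 0.434 over 18494 genes, and in 8 of 9 pairs both libraries correlated best with each other, a hint from the data and not the design. A replicate block on these pairs, chosen after seeing the data, called 11 ER folding and 15 integrated stress response genes between soleus and gastrocnemius controls, in place of 9 and 11, and 6 and 11 between knockouts, in place of 4 and 9. Over all 18494 genes the block called 9545 in controls, in place of 9122, and 7522 in knockouts, in place of 6987. It ended no call of a member, and added Pdia3, Creld2, Trib3, Sesn2, Ddit4 and Atf4 in controls and Hspa5, Pdia6, Ddit4 and Slc3a2 in knockouts. Ddit4 had log2 differences of -0.74 (adjusted p = 0.00281) in controls and -0.48 (adjusted p = 0.0499) in knockouts under the block. For the difference of the knockout effects the block called 0 members of either arm and 32 of all genes, in place of 13.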
